A study of Gallus gallus with 20 samples.

Results

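The mitochondrial chromosome of the chicken is represented by 37 of the 27170 genes in the deposited table, and every gene placed on chromosome MT was taken. They comprise 13 named protein genes, 2 long genes without a name and 22 short genes without a name. The unnamed long genes are 976 and 1621 bases long (ENSGALG00000036956 at 1297 to 2272 and ENSGALG00000043598 at 2346 to 3966, both on the plus strand, build GRCg6a). They were taken as the small and large ribosomal RNA genes from their length alone, since RefSeq lists mitochondrial ribosomal RNA genes of 976 and 1622 bases for this species, and they are called the shorter and longer rRNA gene here. Of the short genes, 21 are 65 to 76 bases long, the length range of the 22 transfer RNA genes that RefSeq lists, and 1 is 135 bases long. No transfer RNA is named, because the files do not pair these identifiers with one.

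Libraries came from liver and from pectoralis major, the large breast muscle, of mixed-sex KRC chickens slaughtered at 91 days of age. Conventional birds (125 birds in 5 indoor pens) received commercial feed. Organic birds (125 birds in 5 pens) received feed of organic raw materials and could use an outdoor pasture of Ruzi grass from day 21. Each of the 4 groups, conventional liver, organic liver, conventional breast muscle and organic breast muscle, held 5 libraries. Feed and outdoor access changed together and cannot be told apart. The labels tie no library to a bird, pen or sex, so birds may or may not be shared between the tissues.

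Mitochondrial DNA codes for core subunits of most complexes of oxidative phosphorylation, and for the ribosomal and transfer RNAs needed to translate them. Nearly all of it is transcribed as long RNAs that are cut at the transfer RNAs between the genes, so the level of each mature RNA is set mainly by its processing and stability. In vertebrates ND6 is the protein gene coded on the other strand from the rest, and the messages of ATP8 and ATP6, like those of ND4L and ND4, stay joined on a single RNA. Most messages carry short poly(A) tails added in the mitochondrion, and so do the ribosomal RNAs. Liver cells are rich in mitochondria, whereas chicken pectoralis is made mostly of fast glycolytic fibres.

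Breast muscle libraries held 12699692 to 13417005 counts, and liver libraries 14065269 to 15175691, apart from organic replicate 1 with 20488526. Markers fitted the labelled tissues. The 12 hepatocyte markers in the table summed to 129798 to 239501 counts per 1000000 (CPM) in liver and 325 to 1615 in breast muscle, and the 5 muscle fibre markers to 87169 to 120529 CPM in breast muscle and 0.822 to 6.95 in liver. Macrophage markers (7 genes) summed to 982 to 2036 CPM in liver and 56.8 to 144 in breast muscle, and endothelial markers (8 genes) to 409 to 735 in liver and 429 to 718 in breast muscle. The 9 erythrocyte markers summed to 174 to 838 CPM in liver and 76.6 to 453 in breast muscle, and the 5 adipocyte markers to 88.9 to 217 and 83.7 to 239. Of 9 slow-twitch fibre markers in the table, 5 were tested in breast muscle. TNNC1, a troponin of slow and cardiac muscle, made up most of their sum. The other 4 (MYH7B, MB, MYOZ2 and CSRP3) summed to 601 CPM in conventional breast muscle replicate 1 and to 1.22 to 46.1 CPM in the other 9 muscle libraries, so that library stood apart. The part of these cell types in the mitochondrial values was not tested.

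Mitochondrial RNA took a larger share of the liver libraries than of the muscle libraries. In conventional liver the 37 genes held 7.61%, 7.85%, 8.52%, 9.25% and 6.93% of the counts in replicates 1 to 5. In organic liver they held 5.79%, 9.12%, 8.11%, 14.2% and 8.06%. In conventional breast muscle the shares were 4.15%, 4.58%, 3.92%, 4.36% and 4.15%, and in organic breast muscle 4.89%, 5.6%, 3.27%, 4.05% and 3.92%. Every liver library lay above every muscle library, although organic liver replicate 1 (5.79%) lay close to organic breast muscle replicate 2 (5.6%). The mean was 8.55% ± 2.24 (SD, n = 10) in liver and 4.29% ± 0.631 (SD, n = 10) in breast muscle, a difference of 4.26 percentage points. No p is given for a sum over the members. A share also depends on the nuclear RNA beside it: the 20 most abundant nuclear genes took 16.9% to 24.7% of the liver counts and 26.0% to 31.1% of the muscle counts. With those genes left out of the totals the difference was 4.98 points, as a sum of the deposited FPKM it was 7.25 points, and without conventional breast muscle replicate 1 it was 4.24 points. With single libraries left out it ranged from 3.63 points (without organic liver replicate 4) to 4.57 points (without organic liver replicate 1). In bulk tissue, fewer cells of a type and less RNA per cell cannot be told apart.

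**Figure D1:**
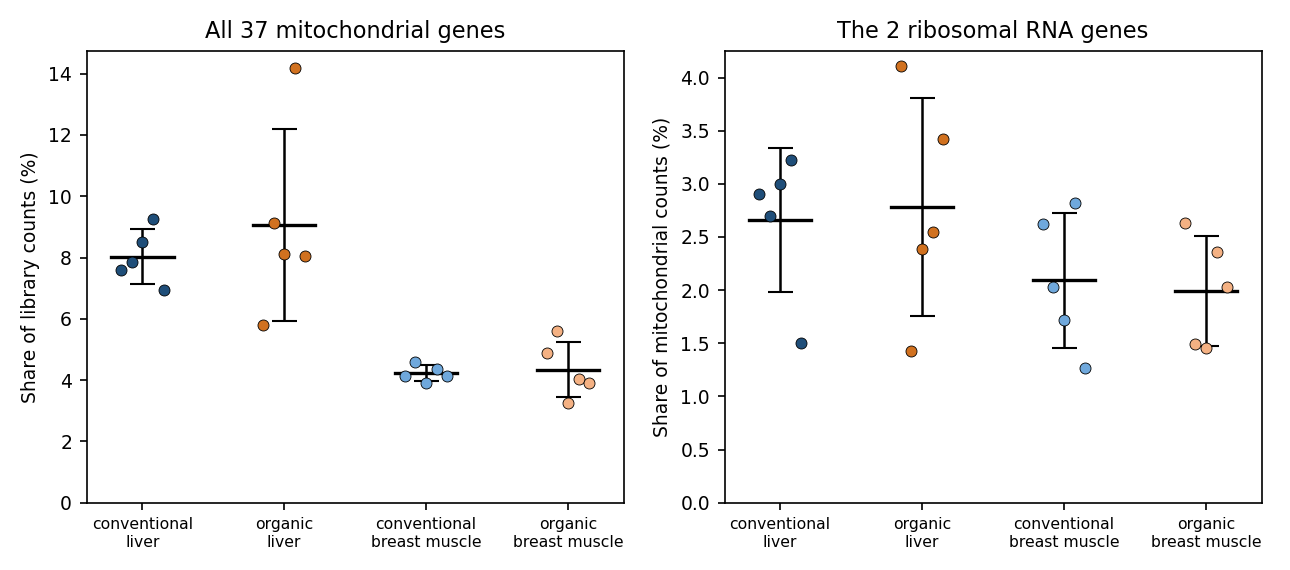
Share of each library's counts on the 37 mitochondrial genes (left, percent of library counts) and share of the mitochondrial counts on the 2 rRNA genes (right, percent) in the 4 groups; points are libraries, horizontal lines group means and vertical bars the SD (n = 5). All 10 liver libraries (5.79% to 14.2%) lie above all 10 muscle libraries (3.27% to 5.6%) on the left, while the rRNA shares of the tissues overlap on the right.

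Protein genes held nearly all mitochondrial counts in both tissues, 97.2% ± 0.824 (SD, n = 10) in liver and 97.9% ± 0.552 (SD, n = 10) in breast muscle. The rRNA genes held 2.72% ± 0.822 in liver and 2.04% ± 0.552 in breast muscle (SD, n = 10), with overlapping ranges of 1.43% to 4.11% and 1.27% to 2.82%. The library protocol and any depletion or selection of RNA are not given in enough detail to say how far they set the rRNA share. The short genes held 0.0405% ± 0.00617 and 0.0391% ± 0.00782 (SD, n = 10). Of the 22 short genes, 2 had 0 counts in all 20 libraries, 13 never exceeded 5 counts in a library, and apart from the 135-base gene the highest count in any library was 42. Genes this short yield few fragments in standard libraries, so their counts do not measure transfer RNA.

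The order of the protein genes by length-scaled level (CPM per kilobase) fell into blocks. In liver the 4 highest were ATP6 at 14589 ± 3818 CPM per kilobase, COX1 at 14415 ± 3188, COII (cytochrome c oxidase subunit 2) at 14394 ± 3835 and COX3 at 13092 ± 3184 (SD, n = 10). The means of these 4 differed by less than the SD between libraries, although ATP6 lay above COX3 in every liver library. CYTB, the mitochondrially coded subunit of complex III, followed at 6420 ± 1676, and ND1 at 4488 ± 1049, ND2 at 3965 ± 1034, ND4 at 3304 ± 842 and ND3 at 3121 ± 699, subunits of complex I, came next. ND5 (2075 ± 551), ATP8 (1878 ± 566), ND4L (1845 ± 564) and ND6 (1521 ± 393) closed the order of protein genes, again with neighbours inside each other's spread. The longer rRNA gene stood at 871 ± 388 and the shorter at 791 ± 241 CPM per kilobase, below all 13 protein genes.

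In breast muscle the same 4 genes led, with ATP6 at 8952 ± 1574, COX3 at 8019 ± 1488, COX1 at 7242 ± 1341 and COII at 6988 ± 1520 CPM per kilobase (SD, n = 10), and CYTB came next at 4521 ± 954. ATP8 stood at 2233 ± 575, between ND2 (2360 ± 967) and ND1 (1927 ± 392). ND4 (1895 ± 520), ND3 (1684 ± 608), ND5 (1152 ± 248) and ND4L (1107 ± 282) followed. ND6 was the lowest protein gene at 315 ± 65.4 CPM per kilobase, between the shorter rRNA gene (489 ± 179) and the longer (277 ± 121). Levels of short genes such as ATP8 (165 bases) and ND4L (297 bases) depend most on fragment length. ATP8 shares 10 bases with ATP6, ND4L shares 7 with ND4 and ATP6 shares 1 with COX3, and the counting of reads over shared bases was not given in the sources used here.

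**Figure D2:**
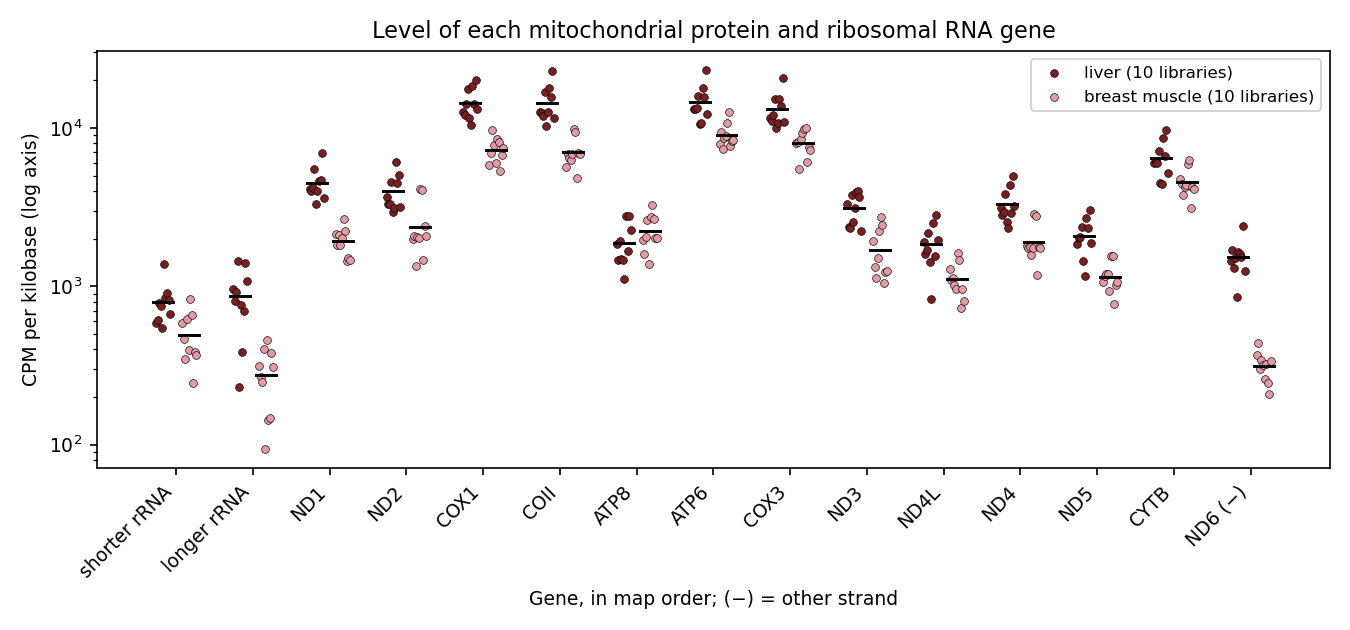
Level of the 13 protein genes and 2 rRNA genes in map order, in CPM per kilobase on a log axis; points are libraries (10 liver, dark; 10 breast muscle, light) and horizontal lines are tissue means. ATP6, COX1, COII and COX3 stand highest in both tissues, ATP8 overlaps between the tissues, and ND6 shows the widest gap between the tissues, with 853 to 2400 in liver and 210 to 439 in breast muscle.

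Gene by gene, liver held more of most mitochondrial RNAs. Of 37 members, 21 passed the filter on low counts when all 20 libraries were fitted together. In the quasi-likelihood test of edgeR, 16 of the 21 were called higher in liver and 0 lower, at an adjusted p under 0.05 over all 14447 genes tested. Differences between these tissues are common: 81.5% of all tested genes were called in either direction and 42.5% were called higher in liver. The called members were 12 of the 13 protein genes, both rRNA genes and 2 of the 6 short genes tested. Of these short genes, the called 70-base gene passed the filter through its liver counts, so its call is no support. The median log2 fold change, liver over breast muscle, was 0.80 for the 13 protein genes and 0.07 for all genes tested. Groups did not overlap for 5 members (ND1, COX1, COII, COX3 and ND6), against 49.0% of all tested genes.

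ND6, the subunit of complex I coded on the minus strand (ENSGALG00000037838, 16184 to 16705), differed most. Its level in liver was 1452, 1682, 1310, 1505 and 853 CPM per kilobase in conventional replicates 1 to 5 and 1640, 1591, 1533, 2400 and 1249 in organic replicates. In breast muscle it was 367, 439, 300, 345 and 319 in conventional and 261, 323, 247, 210 and 338 in organic replicates. The lowest liver library stood clear of the highest muscle library. The log2 fold change was 2.28 ± 0.14 (SE), 4.84-fold higher in liver (adjusted p = 3.42e-12, edgeR). Whether counting used the strand was not given in the sources used here, so reads of ND6 and reads of RNA from the opposite strand over the same bases cannot be told apart. Any selection of RNA by its poly(A) tail was not given in enough detail either, and its part in the ND6 level was not tested.

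Other complex I subunits were higher in liver by smaller amounts. ND1, next to the rRNA genes (ENSGALG00000042750, 4050 to 5024), ranged from 3318 to 6916 CPM per kilobase with a median of 4119 in liver, and from 1444 to 2676 with a median of 1923 in breast muscle. Its log2 fold change was 1.22 ± 0.15 (SE; adjusted p = 1.5e-07, edgeR). ND3 was higher by 0.89 ± 0.19 on the log2 scale, ND5 by 0.85 ± 0.17, ND4 by 0.80 ± 0.16, ND2 by 0.77 ± 0.18 and ND4L by 0.74 ± 0.19. Each of these 5 passed the threshold while its tissues overlapped in range.

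The core subunits of cytochrome c oxidase were also higher. COX1 (ENSGALG00000032142, 6645 to 8192) ranged from 10467 to 19993 CPM per kilobase in liver, with a median of 13567, and from 5308 to 9651 in breast muscle, with a median of 7188. The lowest liver library was therefore above the highest muscle library. Its log2 fold change was 0.99 ± 0.15 (SE; adjusted p = 3.43e-06, edgeR), with COII at 1.04 ± 0.15 and COX3 at 0.70 ± 0.15. CYTB (ENSGALG00000032079, 14893 to 16035), from 4417 to 9650 in liver and 3109 to 6299 in breast muscle, had the smallest difference among the called protein genes, 0.50 ± 0.16 (adjusted p = 0.00618, edgeR).

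The 2 subunits of ATP synthase parted. ATP6 (ENSGALG00000041091, 9240 to 9923) was higher in liver by 0.70 ± 0.15 on the log2 scale (adjusted p = 0.000152, edgeR). ATP8 (ENSGALG00000032465, 9085 to 9249) stood at 1841, 1455, 1920, 1490 and 1459 CPM per kilobase in conventional liver and 1119, 2759, 1675, 2790 and 2271 in organic liver. In breast muscle it stood at 1972, 1594, 2059, 2628 and 1387 in conventional and 2756, 3265, 2639, 2010 and 2015 in organic replicates. The tissues overlapped, and ATP8 was the 1 protein gene that did not pass, with a log2 fold change of -0.25 ± 0.16 (95% interval -0.56 to 0.06, adjusted p = 0.151, edgeR).

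Both rRNA genes were called higher in liver. The longer gene ranged from 232 to 1445 CPM per kilobase in liver and from 93.9 to 457 in breast muscle, a log2 fold change of 1.66 ± 0.32 (SE; adjusted p = 7.33e-05, edgeR). The shorter gene ranged from 544 to 1388 and from 244 to 831, a log2 fold change of 0.67 ± 0.19 (adjusted p = 0.00316, edgeR). Ranges overlapped for both. Of the short genes, the 135-base gene (ENSGALG00000033462, 8124 to 8258, minus strand) was called at 1.09 ± 0.15, and the 70-base gene at 16108 to 16177 at 1.28 ± 0.42. The 70-base gene had few counts, 8 to 42 per library in liver and 1 to 23 in breast muscle. It passed the filter in the liver fit but not in the breast muscle fit. Its place among the tested genes therefore came from the tissue where it was higher. The 135-base gene lies over 69 bases of the end of COX1 on the opposite strand, and its counts were 0.0943% to 0.18% of those of COX1, so its reads cannot be assigned to it with certainty.

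**Figure D3:**
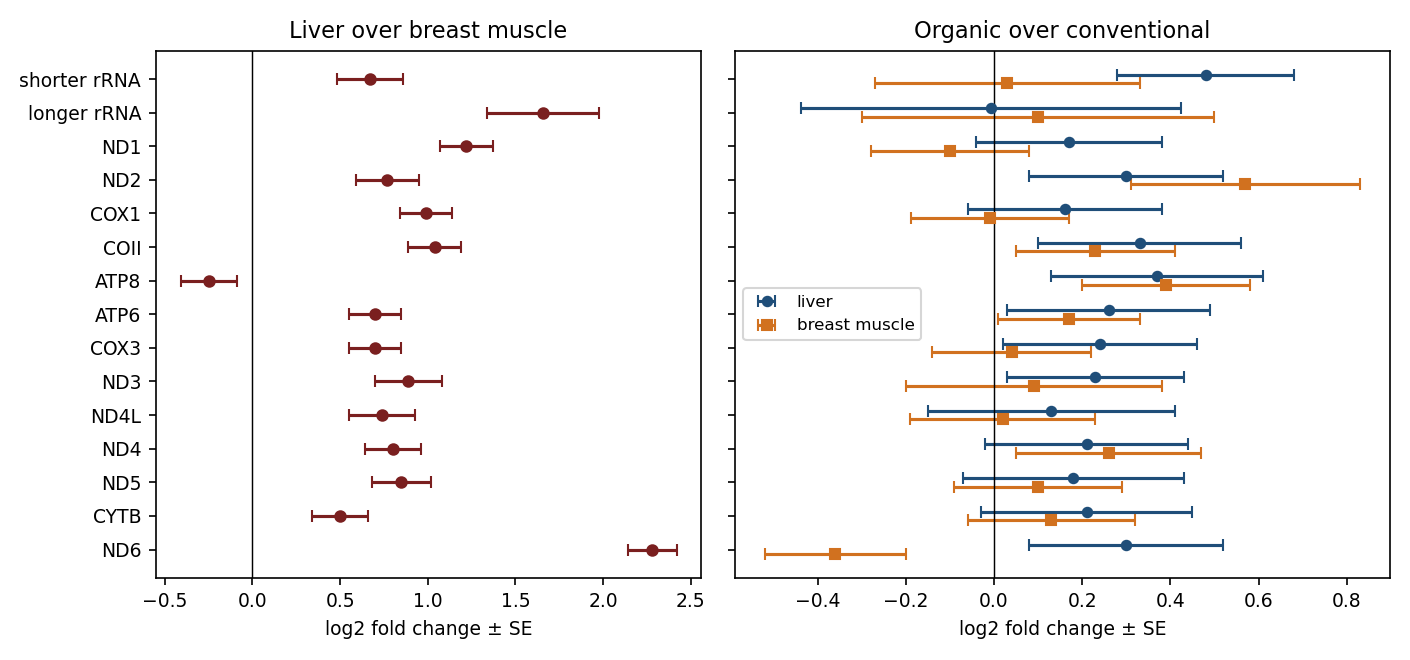
Log2 fold change with SE of the 15 protein and rRNA genes in map order, for liver over breast muscle (left) and for organic over conventional in each tissue (right), from edgeR fits across all genes. On the left ND6 stands at 2.28 and ATP8 at -0.25; on the right 0 of the genes passed the threshold in either tissue.

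Balance inside the mitochondrial pool was examined with 6 log2 ratios of counts per length, which do not depend on nuclear RNA, in 3 comparisons with adjustment over the 18 tests. Between tissues 3 ratios passed. ND6 over CYTB, a gene of the minus strand over a gene of the plus strand, averaged -2.08 ± 0.29 in liver and -3.85 ± 0.39 in breast muscle (log2, SD, n = 10). The lowest liver value was -2.43 and the highest muscle value -3.33, so the tissues did not overlap. The difference was 1.77 ± 0.15 (SE), a 3.4-fold higher ratio in liver (permutation test, p = 2e-05, the smallest its resamples can give, adjusted p = 0.00036). Its size depends on the plus-strand gene chosen. CYTB had the smallest log2 fold change between tissues among the called protein genes (0.50), while that of ND1 was 1.22. Because the strand setting was not given, the ratio does not measure the balance of the strands as a whole. ND6 made up 1.8% ± 0.347 of the length-scaled signal of the 13 protein genes in liver and 0.666% ± 0.163 in breast muscle (SD, n = 10), again without overlap.

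ATP8 over ATP6, which lie on a joint message, averaged -2.98 ± 0.30 in liver and -2.03 ± 0.35 in breast muscle (log2, SD, n = 10). Liver values ran from -3.42 to -2.43 and muscle values from -2.67 to -1.53, so conventional breast muscle replicates 2 (-2.56) and 5 (-2.67) fell within the liver range. The ratio was lower in liver by a log2 difference of -0.95 ± 0.15 (SE), 0.519 of the muscle ratio (permutation test, p = 6e-05, adjusted p = 0.00054). ATP8 is 165 bases long and shares 10 bases with ATP6. Fragment length and the counting of shared bases can therefore change this ratio without a change in RNA, and their part was not tested. CYTB over COX1 averaged -1.18 ± 0.13 in liver and -0.69 ± 0.31 in breast muscle (log2, SD, n = 10). Its difference was -0.49 ± 0.11 (SE; permutation test, p = 0.00034, adjusted p = 0.00204), with conventional breast muscle replicate 3 (-1.35) inside the liver range.

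With libraries taken as unpaired, the other ratios did not pass between tissues. A block on the replicate number, which no label ties to a bird, let both ratios that involve the longer rRNA gene pass, as given under the processing. The longer over the shorter rRNA gene averaged 0.02 ± 0.84 in liver and -0.89 ± 0.71 in breast muscle (log2, SD, n = 10), a difference of 0.91 ± 0.35 (SE; permutation test, p = 0.0186, adjusted p = 0.0835). Without conventional liver replicate 5 it was 1.05 (adjusted p = 0.029) and without organic liver replicate 2 it was 1.03 (adjusted p = 0.0358). COX1 over ND1 differed by -0.23 ± 0.11 (permutation test, adjusted p = 0.167) and ND1 over the longer rRNA gene by -0.42 ± 0.33 (permutation test, adjusted p = 0.566).

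By complex, genes of complex III took 7.51% ± 0.486 of the length-scaled protein-gene signal in liver and 9.31% ± 0.613 in breast muscle (SD, n = 10), and those of complex V 19.3% ± 0.843 and 23.2% ± 2.01, in each case without overlap. CYTB is the only gene of complex III here, so its single share is the same value. Within complex V, ATP6 took 17.1% ± 0.63 and 18.6% ± 1.3, and ATP8 2.22% ± 0.476 and 4.66% ± 1.17, each with overlap. The level of ATP8 depends on fragment length, as given above. Complex I genes took 23.9% ± 0.708 in liver and 21.3% ± 1.98 in breast muscle, and complex IV genes 49.2% ± 1.08 and 46.1% ± 2.2, with overlap. Of the 13 genes taken singly, the shares of CYTB and ND6 did not overlap between tissues.

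**Figure D4:**
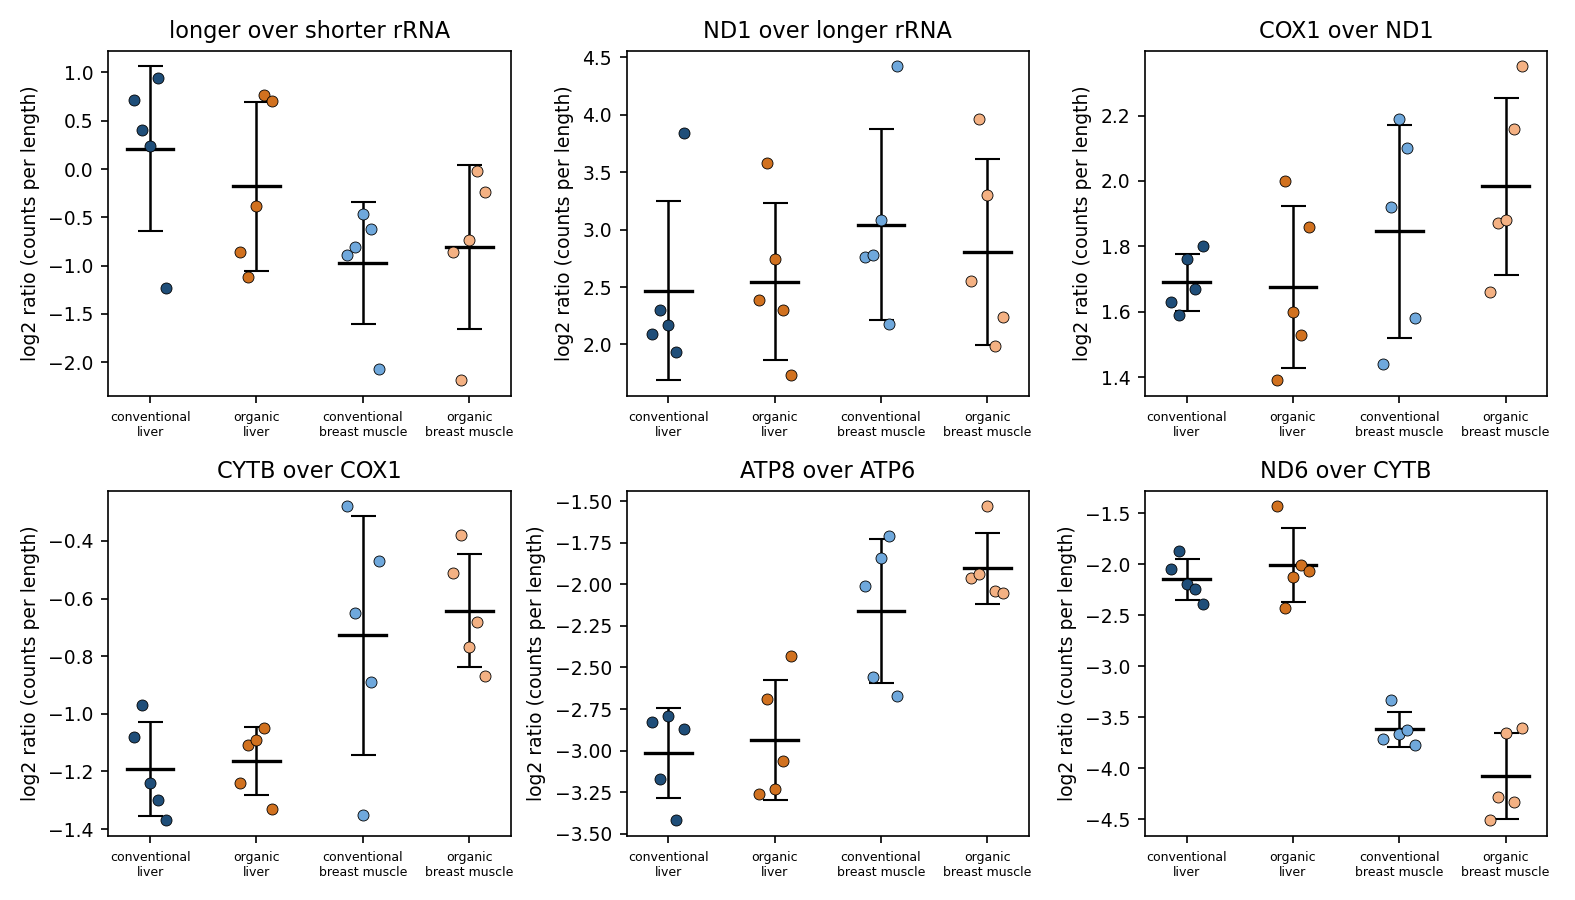
The 6 log2 ratios of counts per length between single mitochondrial genes in the 4 groups; points are libraries, horizontal lines group means and vertical bars the SD (n = 5). ND6 over CYTB separates liver (-2.43 to -1.43) from breast muscle (-4.51 to -3.33), and the longer over shorter rRNA panel shows low values in conventional replicate 5 and organic replicate 2 of both tissues.

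Whether raising system changes mitochondrial RNA in liver was asked next. Mitochondrial genes held 8.03% ± 0.887 of the counts in conventional and 9.06% ± 3.14 in organic liver (SD, n = 5), a difference of 1.03 points with overlapping groups. Leaving out organic replicate 4, whose share of 14.2% was the highest of the 20 libraries, made it -0.265 points, and leaving out organic replicate 1 made it 1.85 points. Of 37 members, 20 passed the filter and 0 were called (edgeR, adjusted p over 13186 genes, where 0% of all genes were called). Groups overlapped for all 20, against 1.21% of tested genes without overlap. An unadjusted p under 0.05 was found for 2 of the 20 members and for 7.56% of all tested genes. DESeq2 called 31 genes, and 0 of them were members.

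All 13 protein genes had a positive log2 fold change, organic over conventional, from 0.13 ± 0.28 (ND4L) to 0.37 ± 0.24 (ATP8, 95% interval -0.09 to 0.83), and none passed (adjusted p from 0.704 to 0.925, edgeR). Their median was 0.23, beside -0.01 for all genes tested. Leaving out organic replicate 4 brought it to 0.05, and leaving out organic replicate 1 to 0.34. ND4L stood at -0.05 without organic replicate 4. In the same comparison 5 of 5 tested erythrocyte markers (median 0.33) and 7 of 8 endothelial markers (median 0.16) were higher in organic liver, 0 of them called. Other lists varied in direction. Slow-twitch fibre markers were higher for 1 of 1 tested (0.51) and muscle fibre markers for 0 of 2 (median -0.72), with 0 called. Adipocyte markers were higher for 1 of 4 tested (median -0.54), macrophage markers for 4 of 7 (median 0.0019) and hepatocyte markers for 7 of 12 (median 0.0073), with 0 called. Erythrocyte markers summed to 212 to 553 CPM in conventional and 174 to 838 in organic liver, and endothelial markers to 427 to 735 and 409 to 735. Their part in the mitochondrial values was not tested. The protein genes are cut from shared transcripts, so their common sign is not 13 separate observations. COII stood at 0.33 ± 0.23, ND6 at 0.30 ± 0.22 and ND2 at 0.30 ± 0.22.

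The shorter rRNA gene read 586, 616, 780, 755 and 544 CPM per kilobase in conventional liver and 1388, 843, 909, 823 and 666 in organic liver. Organic replicate 1 was the highest and organic replicate 5 lay within the conventional range. Its log2 fold change was 0.48 ± 0.20 (unadjusted p = 0.0324, adjusted p = 0.653, edgeR), and 0.30 without organic replicate 1. The longer rRNA gene read 959, 813, 921, 1445 and 232 in conventional and 764, 387, 698, 1406 and 1083 in organic liver, a log2 fold change of -0.0067 ± 0.43 (95% interval -0.86 to 0.84). Conventional replicate 5 and organic replicate 2 were the lowest of their groups. The 135-base gene was the other member with an unadjusted p under 0.05, at 0.48 ± 0.15 (adjusted p = 0.625, edgeR). None of the 6 ratios passed, and their differences lay between -0.39 ± 0.55 (longer over shorter rRNA) and 0.14 ± 0.18 (ND6 over CYTB), with exact permutation p from 0.492 to 0.897.

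In breast muscle the same question gave a mean share of 4.23% ± 0.247 in conventional and 4.35% ± 0.909 in organic birds (SD, n = 5), a difference of 0.112 points. The organic libraries spanned 3.27% to 5.6%, and the conventional ones 3.92% to 4.58%. Without organic replicate 2 the difference was -0.202 points, and without organic replicate 3 it was 0.38 points. Of 37 members, 18 passed the filter and 0 were called (edgeR, adjusted p over 12496 genes, where 0% were called), and groups overlapped for all of them, against 1.23% of tested genes without overlap. Unadjusted p was under 0.05 for 3 of the 18 and for 7.47% of all tested genes. DESeq2 called 15 genes, 0 of them members. Among the 13 protein genes 10 were higher and 3 lower, with a median log2 fold change of 0.10. Leaving out organic replicate 2 brought it to -0.02, and leaving out organic replicate 3 to 0.23. Without conventional replicate 1, which stood apart in slow-fibre genes, it was 0.15, with ND2 at 0.59, ND6 at -0.35 and 0 members called.

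ND2, a core subunit of complex I, read 1995, 2067, 1338, 2053 and 2007 CPM per kilobase in conventional and 4119, 4076, 1461, 2406 and 2081 in organic breast muscle. Organic replicates 1 and 2 stood far above the others and organic replicate 3 below most conventional libraries. Its log2 fold change was 0.57 ± 0.26 (unadjusted p = 0.0484, adjusted p = 0.66, edgeR). ND6 pointed the other way at -0.36 ± 0.16 (unadjusted p = 0.0371, adjusted p = 0.65, edgeR), with 2 of 5 organic libraries inside the conventional range of 300 to 439 CPM per kilobase. ATP8 was at 0.39 ± 0.19 (adjusted p = 0.668), ND1 at -0.10 ± 0.18 and COX1 at -0.0093 ± 0.18 (edgeR). The third member with a low unadjusted p was a 71-base gene (ENSGALG00000029193) with few counts, at -0.84 ± 0.38 (adjusted p = 0.653, edgeR). None of the 6 ratios passed. The smallest p was that of ND6 over CYTB, which averaged -3.61 ± 0.17 in conventional and -4.08 ± 0.42 in organic muscle (log2, SD, n = 5), a difference of -0.46 ± 0.20 (exact permutation p = 0.111, adjusted p = 0.333).

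Markers of other fibres and cells were read in the same muscle comparison. Of the 5 slow-twitch fibre markers tested, organic birds had 1 higher and 4 lower. Their median difference was -2.55 on the log2 scale, beside -0.01 for all genes. None was called, and MYOZ2, a protein of the slow-fibre Z-disc, had an unadjusted p under 0.05 (-2.57 ± 1.15, unadjusted p = 0.0492, adjusted p = 0.66, edgeR). MYOZ2 was at 43.7 CPM in conventional replicate 1. It was at 0.772 to 3.52 CPM in the other conventional and 0.469 to 3.84 CPM in the organic libraries, so its difference rests on that library. MB, the oxygen-binding myoglobin, was at 81.2, 0.45, 1.56, 6.58 and 3.94 CPM in conventional and 0.469, 1.49, 3.02, 3.87 and 7.1 CPM in organic replicates 1 to 5. Conventional replicate 1 was far above the rest, and the other libraries of the groups overlapped. That library had a mitochondrial share of 4.15%, inside the range of its group. Of the length-scaled protein-gene signal, its complex I (23.6%) and complex III (10.7%) shares were the highest of its group. Its complex IV share (43.6%) was the lowest, and its complex V share (22.1%) lay inside the range. Without that library the complex IV difference, organic minus conventional, was -2.25 points against -1.43. That of complex I was 0.647 points against 0.0669, that of complex III 0.192 against -0.134 and that of complex V 1.41 against 1.5. A link to its slow-fibre genes was not tested. TNNC1 was at 0.14 ± 0.15 on the log2 scale. Endothelial markers were lower in organic muscle for 7 of 8 (median -0.33) and erythrocyte markers higher for 4 of 5 (median 0.11), each with 2 at an unadjusted p under 0.05 and 0 called. Macrophage markers were higher for 4 of 7 (median 0.05) and adipocyte markers for 1 of 4 (median -0.11), with 0 called. Endothelial markers summed to 445 to 718 CPM in conventional and 429 to 591 in organic muscle, and erythrocyte markers to 78.5 to 109 and 76.6 to 453. Their part in the mitochondrial values was not tested.

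The organic change was also compared between tissues. Of the 21 members tested 0 were called (edgeR, interaction term, where 0% of 14447 genes were called and 771 had an unadjusted p under 0.05), and DESeq2 called 0 genes. ND6 had the smallest p among members, with an organic change 0.67 ± 0.28 higher in liver than in breast muscle on the log2 scale (95% interval 0.12 to 1.21, unadjusted p = 0.0254, adjusted p = 0.925, edgeR). For ND2 the difference was -0.27 ± 0.37 (95% interval -0.99 to 0.44).

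Nuclear genes that copy, transcribe and process mitochondrial DNA were read from 3 lists. Of the maintenance and transcription list 14 of 17 symbols were tested, and 6 were called higher in liver than in breast muscle and 1 lower, with a median log2 fold change of 0.02, beside 0.07 for all genes. Of all tested genes 42.5% were called higher and 39.1% lower. The share of the list called higher was near that background, while the share called lower, 1 of 14, was below it. TOP1MT, the mitochondrial topoisomerase, was higher in liver by 2.94 ± 0.13, MTERF2, a member of the mitochondrial termination factor family, by 2.30 ± 0.21, POLG, the catalytic subunit of the mitochondrial DNA polymerase, by 1.41 ± 0.10 and its partner POLG2 by 1.16 ± 0.15. The mitochondrial RNA polymerase POLRMT was at -0.14 ± 0.09 (adjusted p = 0.169, edgeR) and TFAM, which packages the DNA and starts transcription, was higher by 0.72 ± 0.11. These last genes were named after their values were seen.

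Among 28 tested genes of mitochondrial RNA processing, decay and modification (32 symbols), 7 were called higher and 9 lower in liver, with a median of -0.10, so both counts were below the share called over all genes. HSD17B10, a subunit of mitochondrial RNase P, was higher in liver by 1.25 ± 0.15, TRMU, which modifies transfer RNAs, by 0.74 ± 0.11, PNPT1, a nuclease of the RNA degradosome, by 0.71 ± 0.09 and MTPAP, the poly(A) polymerase, by 0.59 ± 0.08. On the other side stood FASTK at -2.27 ± 0.11, GTPBP3, a transfer RNA modifier, at -1.98 ± 0.17, PTCD2 at -1.19 ± 0.09 and REXO2, which degrades short RNAs, at -1.06 ± 0.10. In mammals FASTK has a mitochondrial isoform that is needed for ND6 RNA. Of 9 tested regulators of mitochondrial number (11 symbols), 3 were called higher in liver and 5 lower, beside 81.5% of all genes called in either direction. PPARA, a receptor that drives fatty acid oxidation, was higher by 2.84 ± 0.18, whereas PRKAA2, a catalytic subunit of AMP-activated kinase, stood at -6.99 ± 0.34, ESRRB, an orphan nuclear receptor, at -5.63 ± 0.48 and NRF1, a transcription factor for nuclear genes of the respiratory chain, at -2.47 ± 0.15.

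Between raising systems 0 members of the 3 lists were called in either tissue. In liver 20 of 28 RNA processing genes were higher in organic birds (median 0.09, beside -0.01 for all genes), where 47.7% of all tested genes were higher. SLIRP, which binds mitochondrial messages with LRPPRC, was at 0.43 ± 0.14, PRORP, the nuclease subunit of RNase P, at 0.31 ± 0.14, PNPT1 at 0.27 ± 0.11 and SUPV3L1, the helicase of the degradosome, at 0.24 ± 0.10. Of the maintenance list 7 of 14 were higher, with TWNK, the replicative helicase, at 0.40 ± 0.18, TOP1MT at -0.37 ± 0.17, TFB2M at 0.15 ± 0.11 and POLG at -0.15 ± 0.14. Of the regulators 2 of 7 were higher, with PPARGC1A, a transcriptional coactivator, at -0.74 ± 0.31, PPARA at -0.34 ± 0.22, PPARD at 0.27 ± 0.19 and SIRT1 at 0.22 ± 0.14. Single libraries moved these uncalled values too. Without organic replicate 1 SLIRP came to 0.30, TWNK to 0.26 and PPARGC1A to -0.57. PPARGC1A came to -1.0 without organic replicate 2, SLIRP to 0.52 without organic replicate 5 and TOP1MT to -0.20 without conventional replicate 1.

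In breast muscle 8 of 14 maintenance genes, 12 of 28 RNA processing genes and 4 of 9 regulators were higher in organic birds, with medians of 0.02, -0.04 and -0.04. LONP1, a matrix protease that degrades TFAM, was at 0.37 ± 0.13, TOP1MT at -0.35 ± 0.17, POLG at -0.30 ± 0.15 and SSBP1, the single-strand binding protein, at 0.20 ± 0.13. HSD17B10 was at -0.31 ± 0.17, GTPBP3 at 0.29 ± 0.20, FASTK at 0.26 ± 0.15 and ANGEL2 at -0.24 ± 0.13. PRKAA2 was at -0.32 ± 0.34, PPARGC1A at 0.31 ± 0.22, SIRT1 at 0.29 ± 0.15 and GABPA at -0.12 ± 0.11. Single libraries moved some of these uncalled values: leaving out conventional replicate 3 brought PRKAA2 to -0.006 and leaving out organic replicate 1 to -0.53, while PPARGC1A came to 0.18 with organic replicate 5 left out and to 0.45 with organic replicate 3 left out. In the comparison of the organic change between tissues, PPARGC1A differed by -1.04 ± 0.40 (unadjusted p = 0.0173, adjusted p = 0.925, edgeR), PRORP by 0.44 ± 0.21 and LONP1 by -0.25 ± 0.17.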

How the data were processed

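Read counts per gene were used as the authors deposited them, beside the deposited FPKM. Within each library FPKM was proportional to count over gene length, by a factor of 0.824 to 1.19 of the library total. Per the submitters' processing notes HISAT2 2.0.5, DESeq2 1.20.0 and build GRCg6a were used, without roles. Per the labels' protocols, total RNA (1 μg, RIN of at least 7.7) was extracted with TRIzol. The counting tool, strand setting and treatment of reads matching nuclear copies of mitochondrial DNA were not given in the sources used here. Of the table, 1 item is not reported.

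Groups and replicate numbers came from the sample titles. edgeR 4.0.16 (R 4.3.3) was fitted across all genes with TMM scaling, robust quasi-likelihood F-tests, filterByExpr (minimum count 10) and Benjamini-Hochberg adjustment at 0.05, per tissue for organic against conventional, and over 20 libraries with 4 group means for tissue and interaction. All tests were two-sided. CPM are TMM scaled, and CPM per kilobase divides them by the file's gene length. Levels, shares and ratios carry the SD over libraries, and differences and log2 fold changes the SE. The 95% intervals are approximate and narrower than the F-tests imply. That of ATP8 in breast muscle, 0.01 to 0.77, lies above 0 beside an unadjusted p of 0.064 (edgeR). Ratios were tested by exact permutation (252 splits, smallest p 0.00794) or 100000 resamples (SciPy 1.17.1). The fits were tested on simulated counts. Because nothing says that libraries of a group are separate birds, p-values measure the spread between these libraries.

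Every mitochondrial gene was a member. Of the nuclear lists the rule named up to 4 genes with the smallest p per comparison, 4 each way where over 12 passed, and the first alone for the difference between tissues. Members and lists were chosen with earlier results of these data known. RefSeq of assembly GRCg7b was used only for gene classes and lengths, and 0 of the mitochondrial identifiers were paired with it.

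Alternatives were DESeq2 1.42.0 and its size factors, unscaled totals, scaling without mitochondrial genes, no filter, limma 3.58.1 on log2(FPKM + 1), a replicate block, other denominators of the share, 1 count added to each gene of a ratio, FPKM in the ratios and leaving out each library.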

Additional observations from a re-analysis of the deposited data

Results flagged for a closer look

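Among 116 sets of 5 libraries tested for a library far from the rest of its group (Dixon's test), 6 were marked, where chance alone marks about 1 in 20, or 5.8. In conventional breast muscle, replicate 3 had 0.0602% of its mitochondrial counts on short genes (others 0.0341% to 0.04%) and an ND2 level of 1390 CPM (others 2073 to 2147). Replicate 4 of that group had an ND4 level of 2176 CPM (others 2389 to 2459), and replicate 5 a log2 ratio of longer over shorter rRNA of -2.07 (others -0.89 to -0.47). In organic breast muscle, replicate 3 had a log2 ratio of ATP8 over ATP6 of -1.53 (others -2.05 to -1.94). In conventional liver, replicate 5 had a log2 ratio of ND1 over the longer rRNA of 3.84 (others 1.93 to 2.3).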

How the results depend on the processing

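The calls between tissues held for the mitochondrial genes: 16 members were higher in liver under each alternative scaling, without a filter, with DESeq2, with limma and with the replicate block, and 2 short genes were lower without a filter and 1 with limma. Unscaled totals moved the median log2 fold change of all genes from 0.07 to 0.20, and 6602 higher and 5128 lower calls stood beside 6136 and 5643. The tissue difference in mitochondrial share was 7.25 points as a sum of FPKM, against 4.26. DESeq2 called 31 genes in liver and 15 in breast muscle between raising systems, against 0 with edgeR.

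Values near 0 changed sign. The longer rRNA gene in liver was at 0.0019 with DESeq2 and its size factors, 0.004 with unscaled totals (chosen after seeing the data), 0.08 with limma on FPKM and 0.0059 with the replicate block. COX1 in breast muscle was at 0.00073 with DESeq2 and its size factors, 0.02 with limma on FPKM and 0.0012 with the replicate block. The cause was not tested.

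With single libraries left out, breast muscle calls between raising systems ranged from 0 to 1 (1 without conventional replicate 4). On the log2 scale, organic over conventional, the longer rRNA gene in liver ranged from -0.26 to 0.24, ND4L in liver from -0.05 to 0.33 and COX1 in breast muscle from -0.08 to 0.11. Of the liver ratios, ND1 over longer rRNA ranged from -0.18 to 0.42, COX1 over ND1 from -0.09 to 0.06, CYTB over COX1 from -0.02 to 0.08, ATP8 over ATP6 from -0.04 to 0.16 and ND6 over CYTB from -0.0077 to 0.24. Of the muscle ratios, longer over shorter rRNA ranged from -0.11 to 0.51, ND1 over longer rRNA from -0.53 to 0.11 and CYTB over COX1 from -0.07 to 0.20. Between tissues, 3 to 4 ratios passed.

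Same-numbered libraries of the 2 tissues deviated together with correlations of 0.0465 to 0.191 across 14447 genes, and 9 of 10 liver libraries correlated best with the muscle library of their own number. Because no label pairs the numbers and 2 of the 10 fell under 0.1 (0.0465 and 0.0998), the numbers were not taken as pairs. This choice does not show that the libraries are unpaired. With the replicate block, 5 ratios passed between tissues instead of 3, the added ones being longer over shorter rRNA (adjusted p = 0.0117) and ND1 over longer rRNA (adjusted p = 0.0281). Within a tissue the edgeR fits with the block left 0 calls. The blocked ratio test there flips signs over 5 pairs and cannot give a p under 0.0625. No ratio could pass it, so it says nothing about the ratios within a tissue.

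In simulated counts with 5 libraries per group, edgeR recovered 7.46% of 1.5-fold and 37.3% of 2-fold changes between raising systems in liver, and 8.96% and 50.7% in breast muscle. For the difference of the organic change between tissues it recovered 1.49% and 11.9%. The lack of calls over all genes therefore does not show that changes of these sizes or smaller were absent. The changed genes were drawn from all tested genes, so these rates are not specific to the mitochondrial genes. Of the 13 protein genes, the highest upper ends of the approximate 95% intervals on the log2 scale were 0.83 in liver (ATP8) and 1.09 in breast muscle (ND2). Larger changes are not excluded by these ends.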

Other observations

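The 2 ratios that involve the longer rRNA gene had the widest spread between libraries of the 6 examined. The longer over shorter rRNA ratio was 0.427 in conventional liver replicate 5 and 0.238 in conventional breast muscle replicate 5, and it was 0.459 and 0.219 in organic replicate 2. In organic replicates 4 and 5 it was 1.71 and 1.63 in liver and 0.988 and 0.844 in breast muscle. Over the 10 replicate numbers, liver and muscle log2 ratios had Pearson's r = 0.81 and Spearman's rho = 0.66 (permutation p = 0.00546 and 0.0444, adjusted over 6 ratios 0.0164 and 0.133). ND1 over the longer rRNA gene gave r = 0.91 and rho = 0.75 (permutation p = 0.00198 and 0.0181, adjusted 0.0119 and 0.108), and shares the longer gene with it. Without conventional 5 and organic 2, r was 0.47 and 0.59 over 8 pairs, so the relation rests largely on them. The other ratios gave r from -0.29 to 0.27. Subtracting the mean of each raising system left r = 0.87 and 0.93. This comparison was chosen after the values were seen, and the labels do not say that equal numbers mark the same bird.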
